A study of Bos taurus with 4 samples.

Results

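The genes described here are the translation factors and the aminoacyl-tRNA synthetases of bovine subcutaneous fat. A sequence cluster was taken as a member when its description in the authors' sequence file named a eukaryotic translation initiation, elongation or termination factor, or a tRNA synthetase. Of the 36373 UniGene clusters with deposited counts, 83 were members, and the rule itself read descriptions and no measured value. A further 3 descriptions matched, but these clusters were not analysed here. The RNA came from Qinchuan cattle, a Chinese breed, and each group was 1 library made from the pooled tissue of 5 animals. ATFB was made from fetuses of 200 to 250 days. The other groups were adults of 18 to 24 months, namely bulls in ATAB, heifers in ATAH and steers, males that had been castrated, in ATAS. With 1 library per group there were no replicates, and a difference between a pair of libraries had no replicate check.

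Protein synthesis starts when eIF2 brings the initiator tRNA to the small ribosomal subunit, eIF3 holds the complex together and the eIF4 factors load it on the capped messenger RNA. The eEF1 and eEF2 factors then move the ribosome along the message, and eRF1, encoded by ETF1, releases the finished chain. Each tRNA synthetase joins an amino acid to its tRNA, in the cytosol or in mitochondria, where most synthetases are products of separate nuclear genes. Control acts on eIF2, which kinases of the EIF2AK family phosphorylate, and on the cap-binding protein eIF4E, which the eIF4E binding proteins hold inactive until the kinase mTOR phosphorylates them.

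A part of the members had near-identical relatives, which can bear on their values because the counts are of uniquely matched reads. The study's methods name the genome as the target of alignment while the counts are per cluster, so whether shared sequence lost reads was not tested. In windows of 90 bases, the length of a read, 36 of the 83 members shared at least 1 window with another cluster and 26 shared 10% or more of theirs. The gamma subunit of eIF2, EIF2S3, shared 43.6% of its windows with the copies LOC782293 and LOC783421. Over the aligned bases, LOC782293 was 99.2% identical to EIF2S3, LOC783421 was 97.8% identical, and EIF2S3Y, the Y-linked form of the gene, was 92.1% identical. The same 60 bases of coding sequence, bases 428 to 487 of the EIF2S3 cluster, are shown 5′ to 3′ to let the copies be compared, with each base that differs from EIF2S3 in capitals.
EIF2S3: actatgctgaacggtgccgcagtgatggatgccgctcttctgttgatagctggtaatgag
LOC782293: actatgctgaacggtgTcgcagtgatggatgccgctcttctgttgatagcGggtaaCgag
LOC783421: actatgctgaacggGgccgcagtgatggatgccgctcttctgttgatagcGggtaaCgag
EIF2S3Y: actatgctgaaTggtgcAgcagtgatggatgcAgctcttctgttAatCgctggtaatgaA
In this stretch LOC782293 and LOC783421 each differed from EIF2S3 at 3 bases and EIF2S3Y at 6 bases. The levels of EIF4A2, WARS, EEF1G, FARSB, EIF4H, EIF2S3 and EIF4E, which shared 72.1%, 70.9%, 66.2%, 60.8%, 53.1%, 43.6% and 42.1% of their windows with other clusters, are uncertain for this reason.

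The libraries held 15.3 to 16.1 M (mega) counted reads. All 83 members had a read in ATAB and ATAS, and 82 had one in ATFB and ATAH. The members took 1.21% of all reads in ATFB and 0.807%, 0.879% and 0.945% in ATAB, ATAH and ATAS. Levels are given as RPKM, reads scaled to sequence length and library total, which the authors deposited. The 10 adipocyte markers summed to 1196 RPKM in ATFB and to 9228 to 12821 RPKM in the adult libraries. The 4 matched erythroid markers summed to 2391 RPKM in ATFB and to at most 1.87 RPKM in the adults. The globin gene HBG2 alone held 2365 RPKM of the ATFB sum. ALAS2 had 25.5 RPKM in ATFB and at most 0.0327 RPKM in the adults. GATA1 was called in no pair, at 0.142 RPKM in ATFB and at most 0.277 RPKM in the adults. The 6 matched markers of dividing cells summed to 68.7 RPKM in ATFB against 27.5 to 38.9 RPKM in the adults. Of these PCNA had the highest level, at 32.0 RPKM against 11.7 to 14.4 RPKM, while MKI67 was called higher in ATAB, at 3.72 RPKM against 1.53 RPKM in ATFB. The sum of the 7 matched leukocyte markers was higher in the adults. It went from 308 RPKM in ATFB to 799.8 and 1072 RPKM in ATAB and ATAH and was higher still in ATAS. Most of it was CD74, at 206 RPKM in ATFB. CD14 was called in no pair with ATFB, and CD79A was called lower in ATAB, at 0 RPKM against 0.671 RPKM in ATFB. The 3 matched endothelial markers summed to 158 RPKM in ATFB and 219.7 to 381 RPKM in the adults, through VWF alone in ATAB, where PECAM1 and KDR were at 95.9 and 28.0 RPKM against 106 and 30.3 RPKM in ATFB. The 7 matched markers of preadipocytes and fibroblasts summed to 11431 RPKM in ATFB and to 7965, 2509 and 3280.5 RPKM in ATAB, ATAH and ATAS. In ATAB only DLK1 and DCN of them were called lower, and COL3A1 was at 2903 RPKM against 1980.3 RPKM in ATFB. Of the skeletal muscle markers 6 were matched, with a sum of 30.4 to 63.0 RPKM, most of it desmin, which smooth muscle also expresses, and actin ACTA1 was at most 3.90 RPKM. In pooled tissue, fewer cells of a type and less RNA per cell cannot be told apart, and the part of these cell types in the differences below was not tested.

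The first question was how the members differed between the fetal and the adult libraries. Between each pair of libraries a cluster was called when an exact two-sided binomial test on its reads, given the library totals, had a Benjamini-Hochberg FDR of 0.001 or less and the log2 ratio of RPKM was at least 1 in size. Such a test compares 2 libraries, not the conditions. Against ATFB, 24 of 83 members were called in ATAB, 6 higher and 18 lower, where 22.6% of all clusters tested were called, 9.51% higher and 13.1% lower. In ATAH, 19 of 82 were called, 8 higher and 11 lower, beside 23.7% of all clusters, 13.9% higher and 9.83% lower. In ATAS, 17 of 83 were called, 9 higher and 8 lower, beside 26.0% of all clusters, 15.5% higher and 10.5% lower. Among described clusters with at least 100 reads over the 4 libraries, which are deeper, 22, 18 and 16 of 77 members were called in ATAB, ATAH and ATAS, beside 29.5%, 33.7% and 36.1% of all such clusters. The split of calls in ATAH and ATAS moved with scaling: with ACTB as the reference, 6 were higher and 19 lower in ATAH, and 8 were higher and 18 lower in ATAS, while TMM factors gave 9 higher and 13 lower in ATAS. The members' median log2 ratios to ATFB were -0.36, -0.04 and -0.03 in ATAB, ATAH and ATAS. Over all clusters tested the medians were -0.12, 0.03 and 0.04. Over the described clusters with at least 100 reads they were -0.00, 0.24 and 0.32, above those of the members in each library. Across these 3 comparisons, which share the ATFB library, 30 of the 83 members were called in at least 1, beside 33.5% of all clusters, and 53 in none. In all 3 adult libraries 6 members were lower, beside 6.10% of all clusters, and 5 were higher, beside 6.79%, so these counts were near the background.

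**Figure D1:**
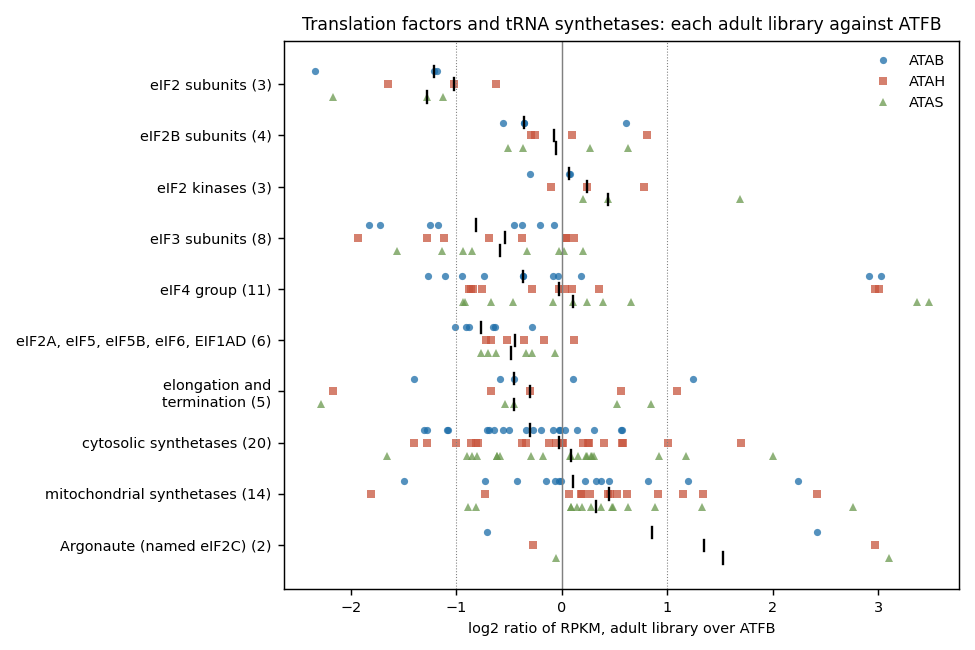
The log2 ratio of RPKM between each adult library and ATFB (horizontal axis) is plotted for the members grouped by role, with the number of members in brackets, 1 point per member and library, and a black bar at each group's median. The eIF2 subunits all lie below 0, the eIF3 subunits spread from -1.93 to 0.20, and the mitochondrial synthetases have medians of 0.10, 0.45 and 0.33 in ATAB, ATAH and ATAS.

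To compare the stages with a measure of spread, ATFB was tested against the 3 adult libraries as a group with the quasi-likelihood test of edgeR. The adult libraries differ in sex and castration, so their spread is not that of replicates of 1 condition, and ATFB itself is a single library. At a Benjamini-Hochberg FDR of 0.05, 16 of 82 members tested were called, 11 higher in ATFB and 5 lower, beside 18.2% of all 25584 clusters tested, 8.39% higher and 9.83% lower. The median log2 difference of the members, adult over ATFB, was -0.11, and that of all clusters was 0.05. With library totals in place of TMM factors the split was 6 higher in ATFB and 5 lower. The count moved when an adult library was left out, and so did that of all clusters, which was 4661 with every library. Without ATAH, 4 members were called, namely EIF2S3, EIF4G3, EIF4EBP2 and EIF2C1, among 2321 clusters. Without ATAB, 25 members were called among 7123 clusters, and without ATAS 13 among 5211. At the thresholds of the pairwise comparisons, FDR 0.001 and log2 1, none of the members and none of the clusters was called in this test, while 32 members, 39.0% of those tested, had an unadjusted p under 0.05, beside 37.4% of all clusters.

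Of the eIF2 subunits, the beta and gamma subunits were higher in ATFB than in all 3 adult libraries, and the alpha subunit than in ATAB and ATAS. EIF2S3 had 178 RPKM in ATFB and 35.1, 56.7 and 39.6 RPKM in bulls, heifers and steers. All 3 adult values lay well under the fetal one, and EIF2S3 was called in all 3 pairs and in the test of stages, with 4.18-fold more in ATFB (edgeR log2 -2.06 ± 0.30 (SE) adult over ATFB, FDR 0.012). It kept its call under all 8 alternatives that held the FDR threshold at 0.05, where its FDR ranged from 1.4e-06 to 0.026. EIF2S2, the beta subunit, had 176, 77.6, 86.6 and 72.3 RPKM in the same order of libraries (log2 -1.18 ± 0.29, edgeR FDR 0.037), and lost its call without ATAH or without ATAS, with an FDR of at most 0.13. The alpha subunit EIF2S1, which carries the site that the kinases phosphorylate, had a low level of 4.52 RPKM in ATFB and 1.95, 2.94 and 2.06 RPKM in the adults. This cluster shared 29.6% of its windows with another cluster, so its level is uncertain. EIF2S1 was called lower in ATAB and ATAS (log2 -1.21 and -1.13), not in ATAH, and its edgeR FDR was 0.095. Within a library the ratio of EIF2S3 to EIF2S2 per length does not depend on scaling. It was 1.01 in ATFB (95% exact interval 0.972 to 1.06), 0.452, 0.654 and 0.548 in ATAB, ATAH and ATAS, and no adult interval reached that of ATFB.

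EIF2S3Y, which is no member by its description, had 119 reads in ATAB, 111 in ATAS and none in ATFB and ATAH. At 6.82 and 6.60 RPKM, it stood at 0.194 and 0.166 of the level of EIF2S3 in the bull and steer libraries. The libraries without reads of it were those of heifers and of fetuses, and a count of 0 is read as up to 3 reads. The reads of LOC783421 numbered 87 in ATFB and 39, 47 and 40 in ATAB, ATAH and ATAS, and those of LOC782293 numbered 34, 7, 4 and 17. Both copies thus held few reads beside EIF2S3, and the order of ATFB over the adults was the same in all 3 clusters.

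The other factors around eIF2 were EIF2A, eIF2B and the kinases. EIF2A, an initiation factor separate from eIF2, had 64.9 RPKM in ATFB and 39.4 to 42.1 RPKM in the adults (edgeR FDR 0.13). None of the 4 matched subunits of eIF2B, the exchange factor that reloads eIF2 with GTP, was called in any pair with ATFB. Of all clusters 33.5% were called in at least 1 of these pairs. EIF2B4, the subunit with the most reads, had 27.8 RPKM in ATFB and 21.6, 29.7 and 33.5 RPKM in bulls, heifers and steers. Of the eIF2 kinases, EIF2AK3, known as PERK and activated by stress in the endoplasmic reticulum, had 7.56, 7.94, 7.03 and 8.69 RPKM in the order ATFB, ATAB, ATAH, ATAS. EIF2AK1, the heme-regulated kinase, had 16.0, 13.0, 18.9 and 21.8 RPKM. Neither was called in any pair. The third, EIF2AK2, was called higher in ATAS than in ATFB (log2 1.69) and not in ATAB or ATAH, and its levels are given with the adult comparisons. EIF2C1 and EIF2C2 are Argonaute genes of the microRNA pathway that the older name eIF2C brings into the rule. EIF2C1 had 0.762 RPKM in ATFB against 4.08, 5.95 and 6.52 RPKM in the adults, 6.98-fold higher in the adults (edgeR FDR 0.01). EIF2C2 had 7.76, 4.74, 6.44 and 7.49 RPKM and was called in no pair.

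The 8 matched subunits of eIF3 did not move together. EIF3E had 410.5 RPKM in ATFB and 116, 108 and 139 RPKM in bulls, heifers and steers. EIF3G had 244, 103, 112 and 110.2 RPKM in the same order. Both were called lower in all 3 adult libraries, and edgeR gave log2 differences of -1.79 ± 0.30 (FDR 0.016) and -1.20 ± 0.27 (FDR 0.03). EIF3D, a cap-binding subunit, had 192 RPKM in ATFB and 58.2, 78.7 and 106 RPKM in ATAB, ATAH and ATAS, and was called against ATAB and ATAH and by edgeR (FDR 0.039). EIF3J, a loosely bound subunit, had 73.1 RPKM against 32.6 to 45.4 RPKM (edgeR FDR 0.048). By contrast, the core subunits EIF3A, EIF3B and EIF3C were called in no pair. EIF3C, the subunit with the most reads, had 101 RPKM in ATFB and 96.4, 104 and 116 RPKM in bulls, heifers and steers. EIF3L was called in none either, at 104 RPKM in ATFB and 79.6 to 82.5 RPKM in the adults. The ratio of EIF3E to EIF3B within a library was 8.63 in ATFB (8.26 to 9.01), 2.81 and 2.09 in ATAB and ATAH, and in ATAS its interval ran from 2.84 to 3.15. Of the 8 subunits, 2 were thus lower in all 3 adult libraries and 4 higher in ATFB by edgeR, beside 6.10% and 8.39% of all clusters. Without ATAH, none of the 4 subunits kept its edgeR call, and with library totals in place of TMM factors 2 did.

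**Figure D2:**
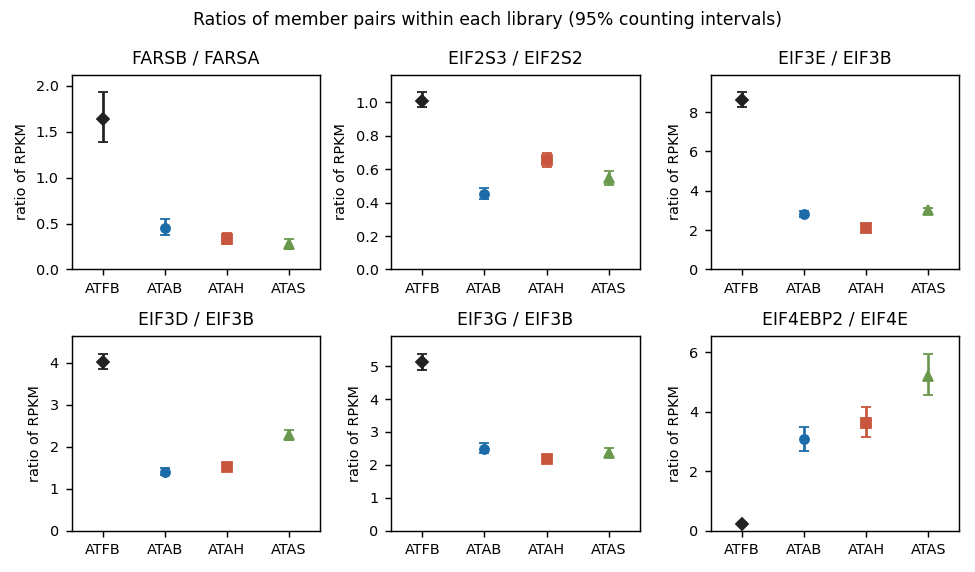
Each panel plots the ratio of RPKM of a pair of members within each of the 4 libraries, with 95% exact counting intervals, for 6 pairs chosen with their values known. In these 6 panels the ATFB interval is apart from those of the 3 adult libraries, above them for FARSB over FARSA (1.64 against 0.275 to 0.456) and below them for EIF4EBP2 over EIF4E (0.243 against 3.07 to 5.21).

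In the eIF4 group, apart from a copy with few reads, the largest differences were in a scaffold and a repressor. EIF4EBP2, an eIF4E binding protein that blocks the assembly of the cap complex, had 4.81 RPKM in ATFB and 36.2, 38.8 and 53.5 RPKM in bulls, heifers and steers. EIF4G3, a scaffold that links the cap-binding protein to the helicase, had 1.57, 12.8, 12.3 and 16.3 RPKM. Both were low in ATFB and several-fold higher in every adult library. EdgeR gave 8.67-fold and 8.57-fold higher levels in the adults (log2 3.12 ± 0.35 and 3.10 ± 0.34, both FDR 0.0084), and both kept their call under the same 8 alternatives, as did EIF2C1. Members of the eIF4 group with high levels did not share this pattern. EIF4G2, a scaffold that lacks the site for eIF4E and had the most reads of the group, had 268, 261, 288 and 317 RPKM and was called in no pair. The helicase EIF4A1 had 344 RPKM in ATFB and 143, 193 and 182 RPKM in the adults, and was called against ATAB alone (edgeR FDR 0.055). EIF4E itself had 19.8 RPKM in ATFB and 10.3 to 11.8 RPKM in the adults (edgeR FDR 0.076). EIF4E shared 42.1% of its windows with another cluster, so its level is uncertain. The ratio of EIF4EBP2 to EIF4E was 0.243 in ATFB (0.192 to 0.306) and 3.07, 3.63 and 5.21 in ATAB, ATAH and ATAS. The short copy LOC782938, described like an eIF4 factor, had 4 reads in ATFB and 20 to 34 in the adults. On these few reads it was called higher in ATAB and ATAS (log2 3.01 and 2.83), not in ATAH, and its edgeR FDR was 0.061.

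The 5 remaining clusters of the initiation group were EIF1AD, EIF5, a short EIF5B cluster, LOC614207 and EIF6. Of them 1 was called in a pair with ATFB, beside 33.5% of all clusters. EIF6, which keeps the large ribosomal subunit apart from the small one, had 69.9 RPKM in ATFB and 34.8 in ATAB, where it was called, and 48.8 and 57.5 RPKM in ATAH and ATAS. EIF5, the GTPase activator of eIF2, had the most reads of these genes, at 73.4, 60.4, 80.0 and 58.0 RPKM.

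**Figure D3:**
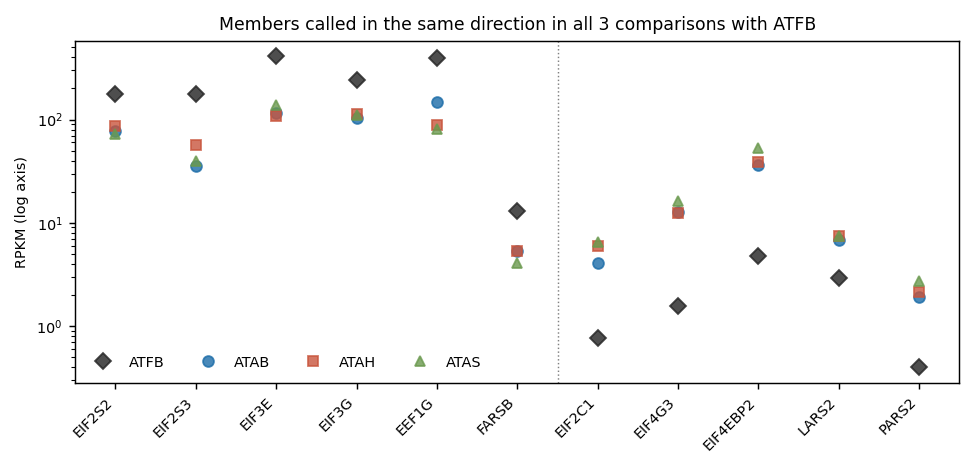
RPKM on a log axis is plotted in the 4 libraries for the 6 members lower in every adult library (left of the dotted line) and the 5 members higher in every adult library (right). EIF2C1, EIF4G3 and EIF4EBP2 have the widest gaps between ATFB and the adults, and EIF4EBP2 goes from 4.81 RPKM in ATFB to between 36.2 and 53.5 RPKM.

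Among the elongation factors, EEF2, which moves the ribosome by 1 codon, had the most reads of all members, at 853 RPKM in ATFB and 567, 537 and 623 RPKM in bulls, heifers and steers. These differences stayed under the log2 threshold, and the edgeR FDR was 0.31. EEF1G, a subunit of the exchange factor of eEF1A, had 395 RPKM in ATFB and 149, 88.1 and 81.3 RPKM in bulls, heifers and steers (log2 -1.88 ± 0.47, edgeR FDR 0.041). Its adult values were not alike, with the bull library above the heifer and steer libraries, and without ATAH its FDR was the highest at 0.11. The cluster of EEF1A1, the factor that delivers tRNA to the ribosome and no member by its description, had 344, 84.6, 117 and 136 RPKM and was called in all 3 pairs and by edgeR (FDR 0.02). Its muscle and nerve form EEF1A2 had 6 to 15 reads per library, at most 0.502 RPKM. LOC782776, a cluster described as resembling the same factor, had 4170 reads in ATFB, 4660 in ATAB, 3300 in ATAS and 93 in ATAH, so the heifer library alone was low. The only termination factor, ETF1, had 22.1, 23.9, 32.6 and 31.7 RPKM and was called in no pair.

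Many messages of the translation apparatus begin with a C and a run of pyrimidines, the TOP motif, through which mTOR controls their translation. The first 30 bases of the 4 member clusters on the list of TOP messages are shown 5′ to 3′, with the longest run of C and T in capitals, because EEF1G and EIF3E were called and EEF2 and EIF4B were not. A cluster's first base need not be the start of the message.
EEF1G: gCCCTTTCTCTgcggaatcaccatggcggc
EIF3E: gCTCTCCTTTTCCTTggcaagatggcggag
EEF2: TCTTCCgccgtcgtcgccgccatcctcggc
EIF4B: gataatcacgtgactgCCTCatccgggtcc
The runs are 10, 14, 6 and 4 bases long, and that of EIF4B starts only at base 17. Runs at least this long stood in the first 30 bases of 3.04%, 0.627%, 21.6% and 60.9% of the 10213 described clusters with at least 100 reads. Over all members, 8 of 83 had a run of 8 or more, beside 7.37% of those clusters. The runs of EEF1A1 and PABPC1, which are also on the list, were not measured. Whether run length goes with the difference between libraries was not tested. Of the list of factors with known TOP messages, 6 of 10 had a cluster. EEF1A1, EEF1G and EIF3E were lower in all 3 adult libraries, beside 6.10% of all clusters, and higher in ATFB by edgeR, beside 8.39%. The list's median log2 ratio was -1.15, -1.25 and -0.90 in ATAB, ATAH and ATAS, where all clusters had -0.12, 0.03 and 0.04. Of the 6, EEF1G, EIF3E, EEF2 and EIF4B are members themselves. EEF2, EIF4B and PABPC1, the poly(A) binding protein, were called in no pair with ATFB, and PABPC1 had 425, 230.1, 219 and 351 RPKM (edgeR FDR 0.22). Without ATAH, edgeR called none of the 6.

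The 20 clusters of cytosolic tRNA synthetases had medians of -0.31, -0.03 and 0.08 (log2, ATAB, ATAH and ATAS over ATFB), and 8 of them were called in at least 1 of the 3 pairs and 12 in none, beside 33.5% of all clusters called in at least 1. Their summed level was 819.5 RPKM in ATFB and 582, 650 and 698 RPKM in bulls, heifers and steers. KARS, the lysine enzyme, had the most reads of them, at 166, 78.3, 62.8 and 89.1 RPKM, and was called lower in ATAB and ATAH (edgeR FDR 0.057). By edgeR, DARS, RARS and FARSB, the enzymes of aspartate, arginine and a subunit of that of phenylalanine, were higher in ATFB. These were 3 of the 20 clusters, beside 8.39% of all clusters tested. DARS had 42.1 RPKM in ATFB against 19.8 to 24.0 RPKM in the adults (FDR 0.039), and RARS 37.9 RPKM against 15.3 to 21.7 RPKM (FDR 0.034). With library totals 1 of the 3 was called, and without ATAH none was.

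The phenylalanine enzyme is built from an alpha subunit, FARSA, and a beta subunit, FARSB, and only FARSB was called by edgeR. FARSB had 12.9 RPKM in ATFB and 5.30, 5.30 and 4.08 RPKM in bulls, heifers and steers (log2 -1.41 ± 0.31, edgeR FDR 0.03). FARSA had 7.85 RPKM in ATFB and 11.6, 15.8 and 14.8 RPKM in the adults, with a call in ATAH alone (edgeR FDR 0.074). The ratio of FARSB to FARSA fell from 1.64 in ATFB (1.39 to 1.93) to 0.456 in ATAB (0.378 to 0.549), 0.336 in ATAH and 0.275 in ATAS. The copy FARSB_like, predicted as a miscellaneous RNA, which shared 63.4% of its windows with FARSB, had 34, 14, 14 and 26 reads. For the bifunctional glutamate and proline enzyme EPRS, 2 clusters carried the description. That of 4880 bases had 40.4 RPKM in ATFB and 35.6 to 40.5 RPKM in the adults, without a call. That of 2455 bases had 124 RPKM in ATFB and 71.4 to 81.0 RPKM in the adults, also without a call, but it shared 0 windows of 90 bases with the longer cluster and had a GC content of 56.2% against 44.6%. Whether it is another part of the same message or belongs to another synthetase was not tested. It is counted among the cytosolic clusters and in their sum. The copies LOC511683 and LOC790042 had at most 14 and 2 reads in a library. AARSD1, an editing protein related to the alanine enzyme, had 1.32 to 2.38 RPKM.

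Of the 14 mitochondrial synthetases, 4 were called in at least 1 pair with ATFB and 10 in none, beside 33.5% of all clusters called in at least 1. IARS2, the isoleucine enzyme, had the most reads, at 36.3, 45.2, 41.1 and 38.7 RPKM. LARS2 and PARS2, the leucine and proline enzymes, were higher in all 3 adult libraries, beside 6.79% of all clusters. LARS2 had 2.94 RPKM in ATFB and 6.76, 7.44 and 7.40 RPKM in the adults (2.40-fold, edgeR FDR 0.027). PARS2 had 9 reads in ATFB and 45, 49 and 62 in the adults, where it reached 1.89 to 2.70 RPKM (5.40-fold, edgeR FDR 0.028), so its fetal level rests on few reads. WARS2, the tryptophan enzyme, had 19.1 RPKM in ATFB and 6.77, 5.45 and 10.3 RPKM in ATAB, ATAH and ATAS, and was called lower in ATAB and ATAH (edgeR FDR 0.043). All 3 lost the edgeR call without ATAH, and WARS2 also with library totals.

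The next question was how the adult groups differed. ATAH against ATAB gave 2 members, both higher in ATAH, beside 5.37% of all clusters, 4.14% higher. ATAS against ATAB gave 3, all higher in ATAS, beside 8.72% of all clusters, 6.86% higher. ATAS against ATAH gave 0 members in either direction, beside 1.52% of all clusters higher and 1.48% lower. With a coefficient of variation of 0.4 assumed in edgeR's exact test, none of the calls between adult libraries remained. WARS, the cytosolic tryptophan enzyme, had 29.9 RPKM in ATFB and 21.1, 44.6 and 67.8 RPKM in bulls, heifers and steers. It was 2.11-fold higher in ATAH than in ATAB (95% interval of the log2 ratio 0.96 to 1.20) and 3.21-fold higher in ATAS (1.57 to 1.79). EIF2AK2, the kinase PKR that double-stranded RNA activates, had 6.30, 6.64, 10.8 and 20.4 RPKM in the same order, 3.07-fold higher in ATAS than in ATAB (1.41 to 1.83). TARSL2, a second threonine enzyme, had 16, 21, 53 and 65 reads and 0.388, 0.482, 1.26 and 1.55 RPKM. Against ATFB, WARS was called higher in ATAS (log2 1.18), and TARSL2 in ATAH and ATAS (3.25-fold and 3.99-fold). In all 3 members the order was ATAB, then ATAH, then ATAS, and the intervals cover counting error only. With library totals the medians over all clusters were 0.26 (ATAH over ATAB) and 0.30 (ATAS over ATAB). The share of all clusters in this order was not counted. With TMM or DESeq2 factors the calls of WARS and TARSL2 in ATAH against ATAB were lost, and those in ATAS against ATAB remained. EEF1G was then called lower in ATAH and ATAS than in ATAB (log2 -1.04 and -1.17 with TMM).

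WARS and EIF2AK2 are known interferon-induced genes. A list of 12 other interferon-induced genes was made after their values were seen, so it supports nothing on its own. All 12 stood in the order ATAB, ATAH, ATAS, a share that was not counted over all clusters. Of other lists, 3 of 3 matched endothelial markers had this order. So had 10 of 16 genes of the mTORC1 list below and 8 of 19 of the amino acid response list below. Among adipocyte markers 3 of 10 had it, and among markers of dividing cells 0 of 6. The summed level of the 12 genes was 298 RPKM in ATFB and 109, 341 and 607 RPKM in bulls, heifers and steers. IDO1, which degrades tryptophan, had 3.26, 13.3, 76.2 and 183 RPKM. The summed leukocyte markers stood in the same order of adult libraries, and CD74, the invariant chain of antigen presentation, carried most of that sum at 624, 899.7 and 1663 RPKM in ATAB, ATAH and ATAS. Of the 7 leukocyte markers 5 had this order, while CD68 and CD14 were lower in ATAH than in ATAB. The part of leukocytes in these values was not tested.

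**Figure D4:**
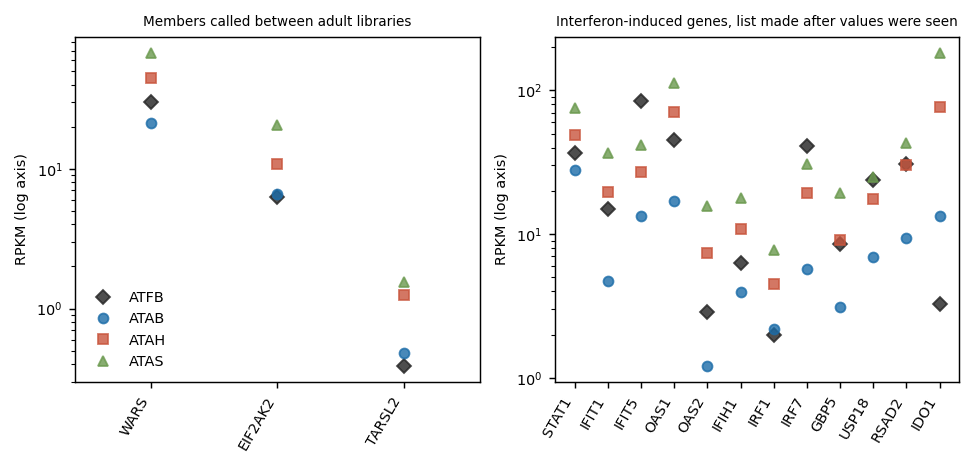
RPKM on a log axis is plotted in the 4 libraries for the 3 members called between adult libraries (left) and for 12 interferon-induced genes chosen after their values were seen (right). WARS, EIF2AK2 and TARSL2 are lowest in ATAB and highest in ATAS among the adults, with WARS going from 21.1 to 67.8 RPKM.

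Genes around the members were read from lists by function. Of 22 genes of mTORC1 and cap-dependent control, 16 had a cluster, and by edgeR 5 were higher in the adults and 1 in ATFB, beside 9.83% and 8.39% of all clusters tested. The list median was 0.52 (log2 adult over ATFB), beside 0.05 over all clusters. MTOR, the kinase itself, had 2.39 RPKM in ATFB and 7.19, 10.5 and 13.4 RPKM in ATAB, ATAH and ATAS (FDR 0.017). Its partner RPTOR had 1.69 RPKM against 5.84, 7.07 and 8.59 RPKM (FDR 0.012), and its inhibitor DEPTOR 1.04 RPKM against 4.17, 6.10 and 4.62 RPKM (FDR 0.02). MKNK2, a kinase of eIF4E, had 8.48 RPKM against 24.6, 44.7 and 45.9 RPKM (FDR 0.018). The gene higher in ATFB was PABPC4, a poly(A) binding protein, at 106 RPKM against 40.8 to 46.0 RPKM (FDR 0.023). The fifth gene higher in the adults, the kinase RPS6KA3, had 3.22 RPKM against 6.92 to 9.53 RPKM (FDR 0.025). Without ATAH, edgeR called 4 genes higher in the adults and 0 in ATFB.

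The amino acid response acts through phosphorylated eIF2 and the factor ATF4, and raises several synthetases. Of its 24 genes 19 had a cluster, and edgeR called 3 of 18 tested higher in the adults and 1 in ATFB, beside 18.2% of all clusters called in either direction. PHGDH, which starts serine synthesis, had 39.3 RPKM in ATFB and 10.4, 3.81 and 3.30 RPKM in bulls, heifers and steers (FDR 0.038). CHAC1, which degrades glutathione, had 0.558 RPKM against 2.48, 3.87 and 4.47 RPKM (FDR 0.02), and VLDLR, a lipoprotein receptor, 3.11 RPKM against 15.4, 16.3 and 9.79 RPKM (FDR 0.027). The third gene higher in the adults was SLC7A1, an amino acid transporter, at 1.91 RPKM against 4.36 to 7.35 RPKM (FDR 0.037). ATF3, a stress factor, had 11.8, 15.1, 43.9 and 61.0 RPKM without an edgeR call (FDR 0.12), and was higher in ATAS than in ATAB. Without ATAB the counts were 4 and 4, and without ATAH 2 and 0, higher in the adults and in ATFB.

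Of the other parts of the apparatus few genes were called. All 10 mitochondrial translation factors had a cluster, and 1, MTRF1L, a release factor, was called, at 14.1 RPKM in ATFB and 6.06 to 8.06 RPKM in the adults (edgeR FDR 0.043). The list's count of 1, beside 8.39% of all clusters higher in ATFB, was 0 without ATAH, with DESeq2, with library totals and with no filter on low counts, and 2 without ATAB. TUFM, the mitochondrial elongation factor Tu, had 69.9 RPKM in ATFB and 37.6 to 56.4 RPKM in the adults without a call (edgeR FDR 0.31). Of 10 other cytosolic factors 8 had a cluster, EIF6 among them, which is also a member. The quasi-likelihood test of edgeR called 0 at FDR 0.05, while the likelihood ratio test and the fit without ATAB called 1 each. DENR, a reinitiation factor, was nearest with a log2 difference of -1.02 and an FDR of 0.065. Of 26 genes of tRNA modification and supply 24 had a cluster, and 2 were called, both higher in ATFB, beside 8.39% of all clusters. Without ATAH the count was 0. POP7, a subunit of RNase P that trims the tRNA 5′ end, had 71.5 RPKM against 24.3 to 25.8 RPKM (FDR 0.016). TRMT5, a tRNA methyltransferase, had 26.7 RPKM against 12.4 to 13.1 RPKM (FDR 0.03).

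As a description over the 77 members with at least 100 reads, the log2 ratio of ATAB over ATFB went with sequence length, with Pearson's r of 0.24 and Spearman's rho of 0.44. Over 10212 described clusters the values were 0.08 and 0.15. With GC content the members gave 0.24 and 0.25, beside 0.11 and 0.13. The points share the same libraries, and the part of fragmentation or base composition in the differences was not tested.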

How the data were processed

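Poly(A) RNA of each pool was sequenced on an Illumina instrument without strand, and per the labels and the study's methods CASAVA and SOAPaligner were used. The version of these tools was not given in the sources used here. Reads were 90 bases long, from the totals of reads and bases in the study, and this set the window for shared sequence. The authors deposited raw read counts of uniquely matched reads per UniGene cluster, the RPKM of each cluster, and the percent of its length that reads covered; a dash was read as 0 reads. The authors also deposited the cluster sequences. Cluster names came from their descriptions, with symbols assigned by hand where a description had none, and no genome coordinates were used. Library totals were 15274529, 16148487, 15590706 and 15557063 reads (ATFB, ATAB, ATAH, ATAS), so that 3 reads on 1 kb are 0.196, 0.186, 0.192 and 0.193 RPKM. Intervals (95%, Clopper-Pearson) and limits cover counting error only.

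Pairs were tested as described with SciPy. The stage test used edgeR 4.0.16 (TMM, filterByExpr), and its SE was the log2 difference divided by the square root of F. DESeq2 1.42.0, in R 4.3.3, was an alternative. Scripts were tested on simulated data. Shared windows left out runs dominated by a single base. Named were the member with the most reads in each role, members called in all 3 pairs with ATFB, members called between adults on 100 or more reads in either library, the eIF2 kinases, eIF4E binding proteins and set paralog pairs, and of each list up to 4 genes with the largest difference. EIF1AX and EIF1AY were not analysed here. TARSL2, called between adults on fewer reads, falls outside this rule and was named after its values were seen, as were other genes given as contrasts, the genes called in the lists among them. The rule for members reads descriptions only, but it and the lists were chosen with earlier results of these data known.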

Additional observations from a re-analysis of the deposited data

How the results depend on the processing

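No paired analysis was possible because each group had 1 library. Counts of members called between libraries moved as follows. With a coefficient of variation of 0.4 assumed in edgeR's exact test, 0 members were called in each of the 6 pairs, so the pairwise calls hold against counting error and not against that spread. In ATAH against ATAB the count of 2 became 1 with TMM factors, with DESeq2 size factors and with ACTB scaling. In ATAS against ATFB the count of 17 became 26 with ACTB scaling. Of the members called there, 52.9% were higher in ATAS with library totals, 40.9% with TMM factors, 37.5% with DESeq2 size factors and 30.8% with ACTB scaling. In this order of settings the higher calls numbered 9, 9, 9 and 8 and the lower calls 8, 13, 15 and 18. In ATAH against ATFB the share of calls higher in ATAH was 42.1% with library totals and 24.0% with ACTB scaling. The members' median log2 ratio of ATAB over ATFB moved from -0.36 to -0.19 with TMM factors and -0.60 with ACTB scaling. That of ATAH over ATFB moved from -0.04 to -0.31 with ACTB scaling, and that of ATAS over ATFB from -0.03 to -0.18 with DESeq2 size factors and -0.28 with ACTB scaling. The median of all clusters moved likewise, from -0.12 to 0.06 and -0.35 in ATAB under the same settings. It moved from 0.03 to -0.25 in ATAH and from 0.04 to -0.11 and -0.21 in ATAS. Between adults the members' median moved from 0.20 to -0.08 (ATAH over ATAB, TMM and DESeq2 factors). For ATAS over ATAB it moved from 0.24 to -0.06 and -0.07 (TMM and DESeq2 factors). The median of all clusters moved there from 0.26 to -0.02 and from 0.30 to 0.01 and 0.00. The stage test called 4 to 25 members when 1 adult library was left out, and 0 at FDR 0.001 and log2 1. No called ratio of a named gene changed sign under the 3 other scalings. With library totals the stage test called 11 members, 6 higher in ATFB where TMM gave 11, and 2 eIF3 subunits, 1 cytosolic synthetase and 0 mitochondrial synthetases higher in ATFB in place of 4, 3 and 1. The total counts of members called stayed within 1.5 times under the other planned settings. The cause of these shifts was not tested.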
